A study of Homo sapiens with 36 samples.

Results

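The 39 genes described here were higher in A549 cells while IL-1β was present and were back near or below the control level at the last 2 collections after its withdrawal. They were chosen by measured values of these same libraries. For each gene, the response d was taken as the mean log2(CPM + 0.5) of the 3 IL-1β libraries minus that of the 3 control libraries of the same time point, where CPM is the count scaled to 1000000 reads on genes. A gene was kept if its mean CPM over the 36 libraries was at least 1, if d was at least 1 at both day 15 and day 21 of exposure, and if d was under 0.5 at both day 15 and day 30 posttreatment. The last limit has no lower bound, so genes below the controls also counted as returned. At day 30 posttreatment 5 of the 39 had a d below -0.5. Of the 63677 genes listed, 15384 had a mean CPM of at least 1 and 228 were induced at both day 15 and day 21. The 39 returning genes were 17.1% of these 228 genes, whereas 66 genes (28.9%) kept a d of at least 1 at both late collections and 123 lay in between. The share that returned depended on the scaling of the counts. Under TMM scaling, which the tests below also use, 67 of 243 induced genes met the limits. Since days 15 and 21 of exposure and days 15 and 30 posttreatment chose the genes, the responses at these times are given without a test. The libraries of day 6 of exposure and of day 6 posttreatment entered the choice through the mean CPM alone, and tests are given on these.

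A549 is an established human lung adenocarcinoma line, and the study used it as a model of cells that keep a mesenchymal state after a long inflammatory stimulus has been removed. Cells in RPMI medium with 10% serum were exposed to IL-1β at 1 ng/ml and collected at days 6, 15 and 21, or were exposed for 21 days and collected at days 6, 15 and 30 after the cytokine had been taken away. Untreated A549 cells were collected beside them each time, which gave 12 groups of 3 libraries labelled as biological replicates. All groups came from this cell line, and the labels do not say whether the replicates were separate cultures, so p-values measure the spread between these samples, which may be technical.

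IL-1β binds its receptor and signals through MyD88 and IRAK kinases to the transcription factor NF-κB and to MAP kinases that act on AP-1. In epithelial cells this pathway switches on chemokines that attract neutrophils, acute-phase proteins and prostaglandin synthesis. It also switches on its own inhibitors, which bind NF-κB subunits, edit ubiquitin chains or degrade cytokine mRNAs. CPM of different genes are not compared here, since they were not divided by transcript length, and in these bulk libraries fewer expressing cells and less RNA per cell cannot be told apart.

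Library totals on genes ran from 9116032 to 23570026 reads. A subset of 11 libraries (6 control and 5 IL-1β) had a mitochondrial share of 11.8% to 24.6% and the other 25 had 5.61% to 7.75%. At day 6 posttreatment these were control replicates 1 and 2 and IL-1β replicate 2, and at day 6 of exposure control replicate 2. Of the 6 epithelial markers examined, KRT8, KRT18, KRT7 and CDH1 were detected at mean CPM of 2273, 1227, 1692 and 176, whereas EPCAM (mean CPM 0.765) and KRT19 (0.0541) were near 0. The leukocyte marker CD3E had no count and PTPRC a mean CPM of 0.0288, although CD14 and ITGAM reached 6.08 and 7.76, and the 6 fibroblast or endothelial markers summed to 1.04 to 4.22 CPM per library.

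All 39 genes had enough counts to be tested among 19180 genes. Their mean CPM ran from 1.21 to 1515 with a median of 8.12, and 14 were under 5. In the control libraries alone, 32 of the 39 had a mean CPM of at least 1, so the other 7 passed the limit through the libraries in which they were high. Of the 39, 37 were protein coding genes, 1 was the long noncoding RNA MIR3142HG, and ENSG00000112096 had no symbol in the reference tables used here. By families known to answer to IL-1, they included 3 chemokines (CXCL1, CXCL3 and CXCL8) and 2 cytokines (IL32 and CSF3). They also included 3 acute-phase genes (SAA1, SAA2 and LCN2) and 4 regulators of the pathway (TNIP1, ZC3H12A, ZC3H12C and NFKBIZ). In all, 27 fell into 11 such lists and 12 into none. These lists were written with earlier results of these data known, and the share of all genes that fall into them was not formed. The counts are therefore only a description. The lists were matched by symbol, so ENSG00000112096, counted among the 12, could not be placed in any list.

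At day 6 of exposure, 35 of the 39 genes were higher in IL-1β cells and 0 were lower (edgeR quasi-likelihood test, called at a fold change over 2 and a Benjamini-Hochberg adjusted p under 0.05). Over all genes tested, 1.52% were called higher in this comparison. The median d of the 39 genes was 1.82, against 0.0686 over all genes with a mean CPM of at least 1, and in 36 of the 39 every IL-1β library lay above every control library, a separation seen in 13.2% of all such genes. Of the 32 genes with a mean CPM of at least 1 in the control libraries 28 were among the 35, and so were all 7 genes that had passed the limit through the libraries in which they were high, calls that this limit favours. The responses that chose the genes came from other libraries, exposed and control. Of the 4 genes not called, BDKRB2 had a fitted log2 fold change of 1.66 ± 0.50 (SE, edgeR adjusted p = 0.0550), STEAP1 1.09 ± 0.43, SMURF2 0.53 ± 0.27 and SCGB3A2 -0.64 ± 0.94. Of the 12 other settings tried, 8 called BDKRB2 and 6 called STEAP1 (adjusted p by edgeR or DESeq2 from 0.000716 to 0.709 and from 0.000815 to 0.684).

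By day 6 posttreatment, 3 of the 39 genes were still called higher (ROS1, ANPEP and SAA1) and 0 were lower, with 11 at an unadjusted p under 0.05. This comparison called 1.08% of all genes tested higher. ANPEP and SAA1 were among the 7 genes with a mean CPM under 1 in the control libraries, and of the other 32 genes ROS1 alone was called. The median d had dropped to 0.406, beside 0.0462 over all genes with a mean CPM of at least 1. In 26 of the 39 genes d was under 0.5, including 6 in which it was below 0, in 8 it lay between 0.5 and 1, and in 5 (ROS1, ANPEP, CXCL8, COL4A6 and SAA1) it was still at least 1. Every exposed library lay above every control library in 9 of the 39 genes, a separation found in 5.58% of all genes with a mean CPM of at least 1. Most of the 39 genes were thus within a d of 0.5 of the control level before the first of the collections that were used to choose them as returned.

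**Figure D1:**
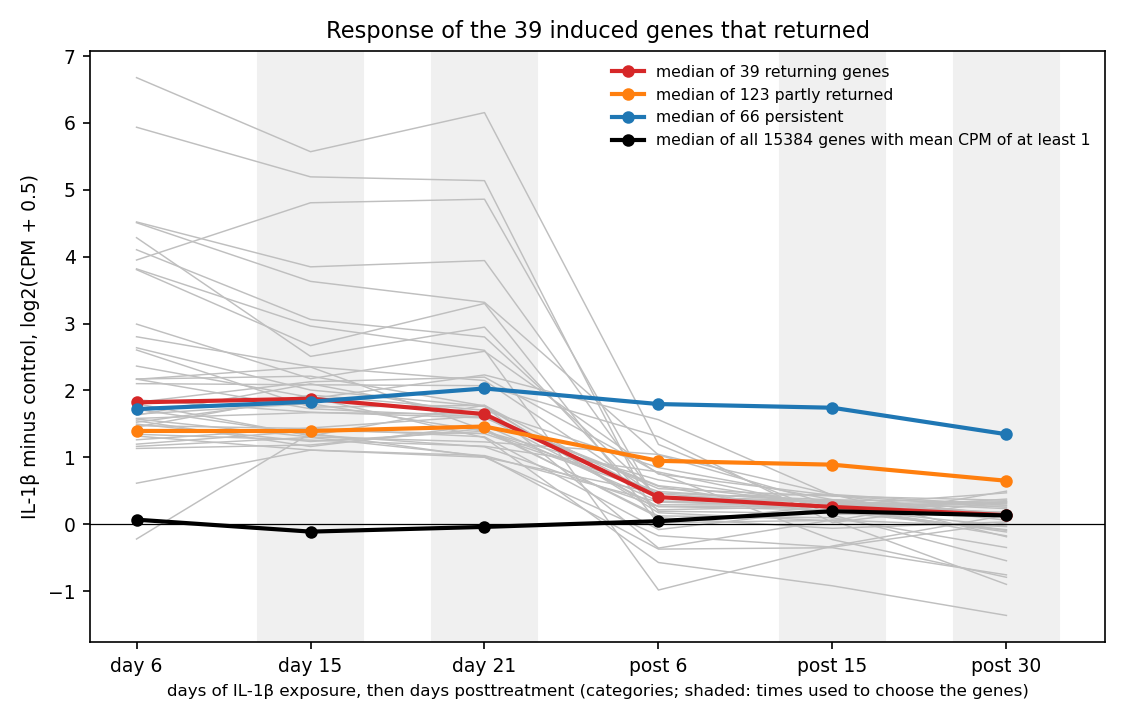
The response d (mean log2(CPM + 0.5) of 3 IL-1β libraries minus that of 3 control libraries, vertical axis) at 3 collections during IL-1β exposure and 3 posttreatment (horizontal axis), with a grey line for each of the 39 genes and medians of 4 sets of genes in colour. The median of the 39 genes dropped from 1.65 at day 21 of exposure to 0.406 at day 6 posttreatment, while that of the 66 persistent genes was 2.03 and 1.80. Shaded times chose the sets.

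A lower response posttreatment was tested as the difference between the response at day 6 posttreatment and that at day 6 of exposure. These libraries had not set the responses behind the choice. IL-1β was withdrawn at day 21, so a change between day 6 and day 21 of exposure is part of this difference. The median d of the 39 genes was 1.82 at day 6 and 1.65 at day 21. The response was lower posttreatment in 12 of the 39 genes and higher in 0 (edgeR quasi-likelihood test with both thresholds), where 0.136% of all genes tested were called lower. The fitted difference was below 0 in 37 of the 39 genes, and 14 passed the adjusted p alone. Of the 12 genes, 11 are named here, CXCL1, CXCL3, CXCL8, LCN2, IL32, TNIP1, ZC3H12A, NFKBIZ, ENSG00000112096, GOLGA7B and ZNF792. As a share of the d at day 6 of exposure, which could be formed for the 38 genes with a d of at least 0.5 then, the median d kept at day 6 posttreatment was 17.0%. It was below 0% in 5 genes, between 0% and 25% in 17, between 25% and 50% in 10 and over 50% in 6. The share ran from -31.9% for STEAP1 to 102% for ROS1.

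These counts depended on replicate 1. Without it, the 35 calls at day 6 of exposure became 22, the 3 calls at day 6 posttreatment became 0 and the 12 calls of a difference became 3, and when each time point was fitted by itself the last 2 counts became 0 and 6. With the 11 libraries of high mitochondrial share left out, which leaves a lone control library at day 6 posttreatment that is taken to vary like the other groups, the 3 counts were 36, 2 and 13.

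**Figure D2:**
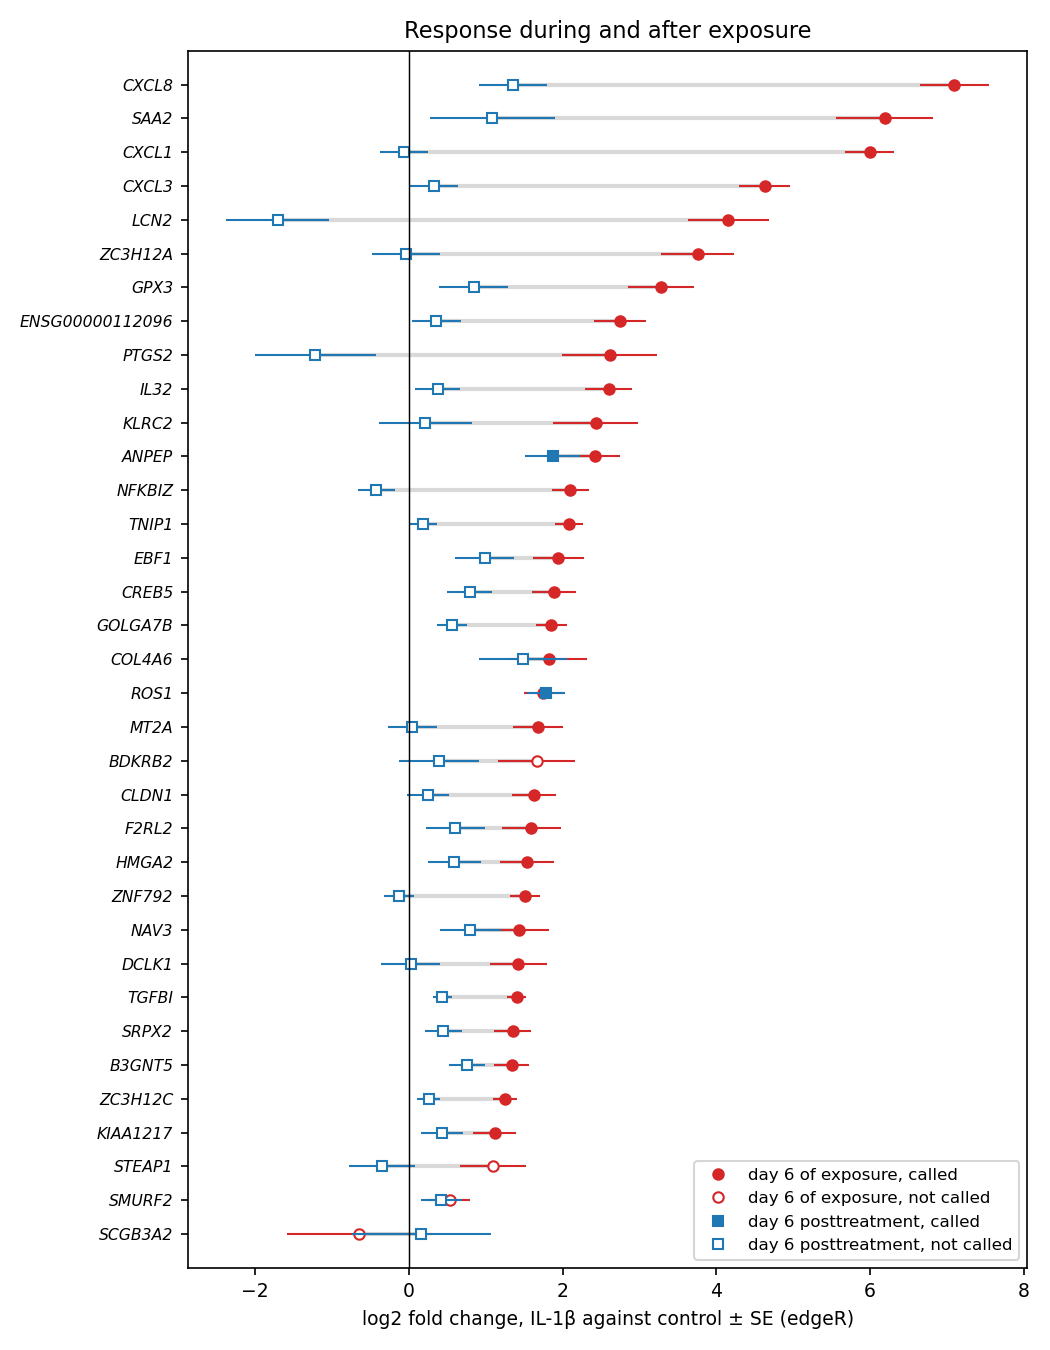
Fitted log2 fold change of IL-1β against control ± SE (horizontal axis, edgeR, 3 libraries per group) for 35 of the 39 genes at day 6 of exposure (red circles) and day 6 posttreatment (blue squares), with filled symbols for genes called by edgeR's test. MIR3142HG, SAA1 and CSF3 are left out because each of their control libraries held at most 3 counts, and 1 more gene is not shown. All red circles except those of BDKRB2, STEAP1, SMURF2 and SCGB3A2 are filled, and among the blue squares only ROS1 and ANPEP are.

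The chemokines CXCL1, CXCL3 and CXCL8, ligands that draw neutrophils through the receptors CXCR1 and CXCR2, fell strongly after withdrawal, and in each the difference between both responses passed the test. CXCL1 was measured at 4.30, 2.90 and 5.06 CPM in the control libraries of day 6 and at 294, 296 and 238 CPM with IL-1β. Posttreatment, at day 6, it was at 1.43, 1.91 and 3.33 CPM in control cells and 2.23, 1.29 and 3.31 CPM in cells that had been exposed for 21 days. At day 21 of exposure, CXCL1 was at 90.9, 83.1 and 140 CPM with IL-1β beside 2.39, 1.96 and 2.97 CPM in the controls. The groups were far apart during exposure and overlapped fully 6 days after it. The fitted log2 fold change of CXCL1 went from 6.00 ± 0.32 (SE, edgeR adjusted p = 5.41e-13) to -0.06 ± 0.31 (adjusted p = 1.00), a difference of -6.05 ± 0.43 (adjusted p = 6.90e-10).

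CXCL8, which encodes interleukin-8, stood at 1.41, 0.745 and 1.19 CPM in the controls of day 6 and at 154, 189 and 146 CPM with IL-1β. At day 21 of exposure it was at 95.4, 67.5 and 104 CPM with IL-1β. Its libraries of day 6 posttreatment held 0.219, 1.30 and 1.02 CPM in control and 2.46, 1.85 and 2.87 CPM in previously exposed cells, so the lowest exposed library still lay above the highest control library. Its fitted log2 fold change fell from 7.10 ± 0.45 to 1.36 ± 0.44, which no longer passed (edgeR adjusted p = 0.122), and the difference did (adjusted p = 1.78e-06). CXCL3 went from 4.63 ± 0.33 to 0.33 ± 0.31 on the same scale, with a difference of -4.30 ± 0.44 (edgeR adjusted p = 7.02e-07). The 3 differences held under each of the 12 other settings tried, with adjusted p from 4.57e-39 to 0.00452 by edgeR and DESeq2.

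At the late collections that chose the genes, d was 0.06 for CXCL1 and 0.14 for CXCL8 at day 15 posttreatment, and both had mean levels below those of the controls at day 30. At day 30 posttreatment CXCL1 was at 3.18, 3.10 and 3.89 CPM in control and 1.54, 1.16 and 2.16 CPM in previously exposed cells, and CXCL8 at 0.752, 1.70 and 1.47 and 0.805, 0.770 and 0.552 CPM. For CXCL1 the highest exposed library was under the lowest control library. Of 29 chemokines listed, 13 were tested, 7 were called higher at day 6 of exposure (CCL2, CCL20, CXCL1, CXCL2, CXCL3, CXCL5 and CXCL8) and 1 lower, and 2 were called higher at day 6 posttreatment. CXCL5 failed the choice narrowly, with a d of 0.518 at day 15 posttreatment. The 3 chosen chemokine genes lie in order within a stretch of chromosome 4 (GRCh37, 74606236 to 74904524), CXCL8 and CXCL1 125.7 kb apart and CXCL1 and CXCL3 165.3 kb apart. Reads that matched both of the near-identical CXCL1 and CXCL3 could be missing from both. The deposited counts hold reads without a unique alignment in a line of their own, which was left out.

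**Figure D3:**
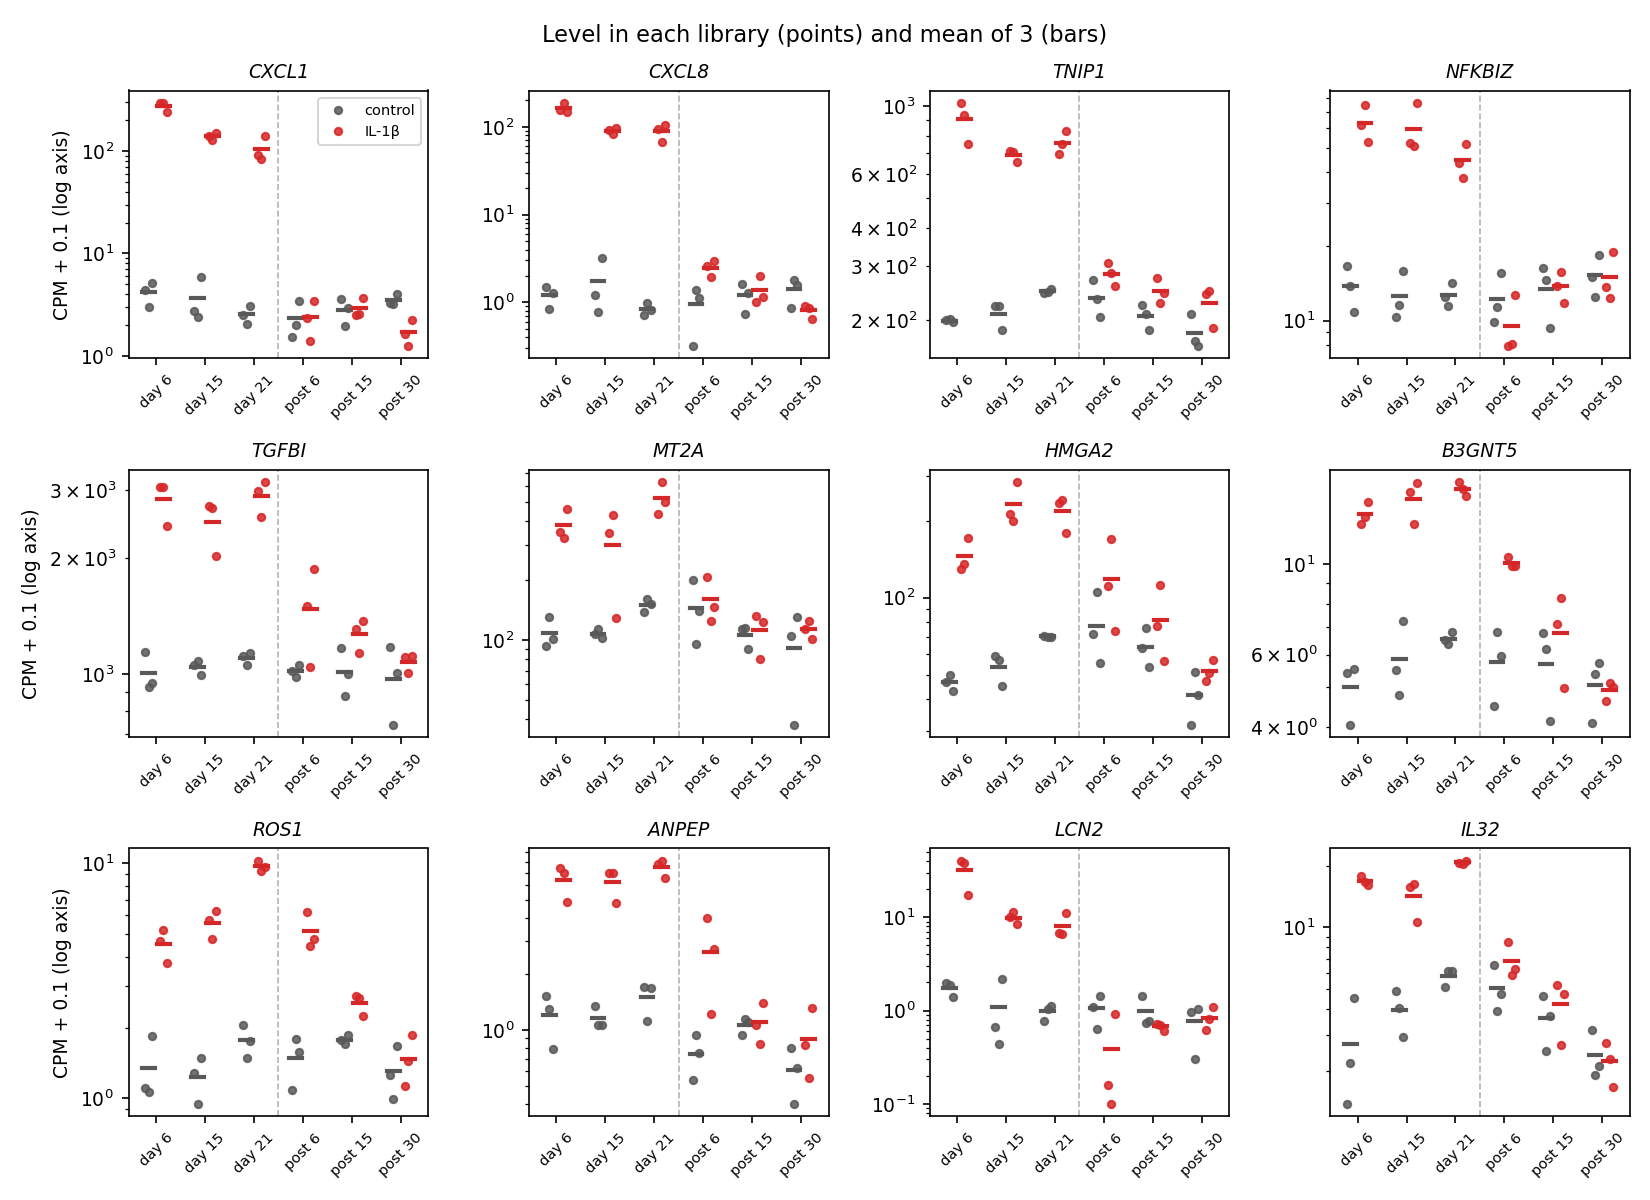
CPM + 0.1 on a log axis in each of the 36 libraries for 12 of the 39 genes, with control libraries in grey, IL-1β libraries in red, a bar at the mean of 3 and a dashed line where IL-1β was withdrawn. For CXCL1 the red points lay at 238 to 296 CPM at day 6 and at 83.1 to 140 CPM at day 21 of exposure. At day 6 posttreatment they lay at 1.29 to 3.31 CPM, where the grey points lay between 1.43 and 3.33 CPM. For ROS1 the red points lay at 9.20 to 10.2 CPM at day 21 of exposure. They lay at 4.34 to 6.10 CPM at day 6 posttreatment, above all grey points of that time.

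The sequence before the start site is shown for the chemokines, for LCN2 and NFKBIZ, whose difference in response was also called, and for ROS1 and ANPEP, which were still called at day 6 posttreatment. Each line gives the 250 bases upstream of the RefSeq start, 5′ to 3′ on the strand of the gene (GRCh38.p14). Capitals mark a match on either strand to the NF-κB consensus (GGGRNNYYCC or GGRRNNYCCC) or to the AP-1 motif TGANTCA. Here R is A or G, Y is C or T, and N is any base. The windows are chr4:73869143-73869392 (+) for CXCL1, chr4:74038690-74038939 (-) for CXCL3, chr4:73740319-73740568 (+) for CXCL8, chr9:128149203-128149452 (+) for LCN2, chr3:101827740-101827989 (+) for NFKBIZ, chr6:117425943-117426192 (-) for ROS1 and chr15:89814853-89815102 (-) for ANPEP.
CXCL1: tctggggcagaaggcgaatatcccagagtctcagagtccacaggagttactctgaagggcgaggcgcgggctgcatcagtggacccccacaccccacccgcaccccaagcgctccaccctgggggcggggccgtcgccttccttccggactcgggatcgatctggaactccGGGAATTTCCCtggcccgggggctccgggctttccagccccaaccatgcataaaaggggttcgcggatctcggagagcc
CXCL3: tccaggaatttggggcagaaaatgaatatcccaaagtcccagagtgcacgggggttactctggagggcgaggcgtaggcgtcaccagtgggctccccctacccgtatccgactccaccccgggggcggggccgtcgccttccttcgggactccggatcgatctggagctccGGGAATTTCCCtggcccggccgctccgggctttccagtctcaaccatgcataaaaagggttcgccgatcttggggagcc
CXCL8: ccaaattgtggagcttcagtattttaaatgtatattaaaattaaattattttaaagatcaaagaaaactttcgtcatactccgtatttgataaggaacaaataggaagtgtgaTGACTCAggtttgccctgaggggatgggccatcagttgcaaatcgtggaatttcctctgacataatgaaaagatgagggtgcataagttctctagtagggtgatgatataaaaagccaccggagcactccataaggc
LCN2: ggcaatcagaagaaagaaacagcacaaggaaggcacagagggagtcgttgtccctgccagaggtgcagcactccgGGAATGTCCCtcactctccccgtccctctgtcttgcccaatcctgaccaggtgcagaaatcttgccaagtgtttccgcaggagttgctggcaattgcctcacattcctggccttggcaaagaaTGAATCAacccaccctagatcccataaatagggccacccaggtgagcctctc
NFKBIZ: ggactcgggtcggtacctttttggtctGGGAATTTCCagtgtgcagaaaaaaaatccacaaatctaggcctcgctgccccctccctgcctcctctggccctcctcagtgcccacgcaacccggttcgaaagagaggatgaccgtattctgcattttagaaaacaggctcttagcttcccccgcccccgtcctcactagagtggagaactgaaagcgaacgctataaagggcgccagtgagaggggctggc
ROS1: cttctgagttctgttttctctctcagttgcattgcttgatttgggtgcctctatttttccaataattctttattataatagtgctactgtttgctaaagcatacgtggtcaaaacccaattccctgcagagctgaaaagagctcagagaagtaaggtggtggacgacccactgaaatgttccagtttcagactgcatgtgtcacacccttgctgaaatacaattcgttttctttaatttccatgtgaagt
ANPEP: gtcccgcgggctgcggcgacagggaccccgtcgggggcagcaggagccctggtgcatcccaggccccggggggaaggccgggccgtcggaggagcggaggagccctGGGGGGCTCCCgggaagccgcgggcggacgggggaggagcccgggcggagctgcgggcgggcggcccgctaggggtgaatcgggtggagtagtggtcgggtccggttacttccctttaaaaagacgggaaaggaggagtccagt

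CXCL1 and CXCL3 held the NF-κB match at the same place, beginning 79 bases before the start, and 90.0% of the last 100 bases before their starts were the same base at the same distance. LCN2 held an NF-κB match 175 bases and an AP-1 match 52 bases before its start, NFKBIZ an NF-κB match at 223 bases and CXCL8 an AP-1 match at 137 bases. The CXCL8 window also holds tggaatttcc, which differs from the NF-κB consensus in its first letter and is not marked. A window without a match can thus still hold an NF-κB site. ANPEP also held an NF-κB match, and the ROS1 window held neither string of letters. The windows rest on a lone RefSeq start for each gene symbol, and its other starts were not searched. RefSeq windows of 300 bases (250 before and 50 after the start) were at hand for 32 of the 39 genes. The NF-κB consensus was found in 11 of them (34.4%), against 10.8% of all 27305 promoters, 20.2% of 89 promoters of the partly returned genes and 18.8% of 48 of the persistent genes. AP-1 was found in 7 (21.9%), against 7.76% of all promoters, 14.6% and 12.5%. These shares are descriptions of letters in a window and were not tested.

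Of the cytokines, IL32 passed the test of the difference and CSF3 was nearly undetected in the absence of IL-1β. IL32, a proinflammatory cytokine of lymphoid and epithelial cells, was at 1.28, 2.09 and 4.44 CPM in the controls of day 6 and at 17.7, 16.5 and 16.01 CPM with IL-1β, against 6.47, 3.82 and 4.62 and 8.39, 5.73 and 6.18 CPM at day 6 posttreatment. The groups were apart during exposure, whereas afterwards the lower exposed libraries lay within the range of the controls. The fitted log2 fold change was 2.60 ± 0.31 and then 0.37 ± 0.30, with a difference of -2.23 ± 0.42 (edgeR adjusted p = 0.00947). In untreated cells IL32 differed by 1.01 ± 0.31 between the same collections (edgeR adjusted p = 0.952). The call of the difference was lost without replicate 1 or 2, with both time points in a fit of their own and when the libraries of high mitochondrial share were left out (adjusted p up to 1.00 over the 12 other settings).

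CSF3, the granulocyte colony-stimulating factor, had no count in any control library of day 6 and 11.4, 9.93 and 6.94 CPM with IL-1β, at least 46.2-fold higher against 3 counts per library. Posttreatment it was at 0 in the 3 control libraries and in 2 of the 3 exposed ones, and the last held 4 counts. Of 42 cytokines listed, 29 were tested, 13 were called higher at day 6 of exposure and 5 at day 6 posttreatment, each of these 5 among the 13.

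Among acute-phase genes, SAA1 and SAA2, which encode serum amyloid A proteins, and LCN2, a lipocalin that binds bacterial siderophores, were in the group. Of 37 acute-phase and complement genes listed, 24 were tested, 6 were called higher and 6 lower at day 6 of exposure, and 1 higher and 5 lower at day 6 posttreatment. LCN2 was at 1.88, 1.79 and 1.31 CPM in the controls and 40.4, 38.1 and 17.03 CPM with IL-1β at day 6 of exposure. With IL-1β at day 21 it was at 6.72, 6.50 and 10.9 CPM. By day 6 posttreatment the controls held 0.987, 0.535 and 1.34 CPM and the exposed libraries 0.0587, 0 and 0.812 CPM, that is 1, 0 and 13 counts. LCN2 had gone from above to mostly below the controls, although the groups overlapped. Its fitted log2 fold change was 4.16 ± 0.52 and then -1.71 ± 0.67, of which the second did not pass (edgeR adjusted p = 0.285), and the difference was -5.87 ± 0.83 (adjusted p = 0.000165). Without replicate 3, where the exposed libraries held 1 and 0 counts, LCN2 was called lower at day 6 posttreatment (fitted log2 fold change -4.25, edgeR adjusted p = 0.00337), and the 11 remaining settings did not call it there.

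SAA1 held 4 counts in the 3 control libraries of day 6 together and 619 with IL-1β, a ratio of 147 after scaling to the reads of the libraries (95% exact interval 57.1 to 541, counting error only). After 6 days without IL-1β it had no count in control cells and 11, 2 and 14 counts in exposed cells, at least 2.44-fold higher against 3 counts per library. It was called there (edgeR adjusted p = 0.0118), a call that was lost when any 1 of the replicates or the libraries of high mitochondrial share were left out (adjusted p from 0.00296 to 0.399 over 11 other settings). SAA2 was at 13.99, 13.6 and 5.36 CPM with IL-1β at day 6 and at 0.176, 0.277 and 0.562 CPM posttreatment, beside at most 0.336 CPM in the controls of both times. The 2 genes lie 17.59 kb apart on chromosome 11 and are near-identical, so their counts are uncertain relative to each other, and SAA2 shares 14.2% of its exonic bases with the readthrough gene SAA2-SAA4.

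Of the 4 regulators of the pathway, TNIP1, ZC3H12A and NFKBIZ passed the test of the difference. TNIP1, a ubiquitin-binding partner of A20 that limits NF-κB activation, was at 199, 201 and 196 CPM in the controls of day 6 and at 1024, 937 and 752 CPM with IL-1β. By day 6 posttreatment it stood at 271, 234 and 204 and 306, 285 and 258 CPM. The exposed libraries had come down to overlap the controls. Its fitted log2 fold change went from 2.08 ± 0.18 to 0.19 ± 0.18, a difference of -1.89 ± 0.25 (edgeR adjusted p = 5.80e-05).

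ZC3H12A encodes Regnase-1, an RNase that degrades cytokine mRNAs, and went from 208, 209 and 151 CPM with IL-1β at day 6, beside 17.2, 10.8 and 11.6 CPM in control cells, to 12.4, 4.34 and 17.2 CPM beside 9.87, 5.35 and 17.4 CPM. The spread within each group of day 6 posttreatment was wider than the gap between them, and the lowest library of each was the second replicate. The fitted difference was -3.79 ± 0.63 (edgeR adjusted p = 0.00206). NFKBIZ, an atypical nuclear member of the IκB family, was at 61.7, 74.8 and 52.5 CPM with IL-1β at day 6 and at 7.80, 7.95 and 12.5 CPM posttreatment. The controls were at 16.5, 13.7 and 10.7 CPM and at 9.76, 11.2 and 15.4 CPM. Its fitted difference was -2.52 ± 0.34 (edgeR adjusted p = 8.85e-05), and the response left was -0.42 ± 0.24 (adjusted p = 0.694). ZC3H12C, a relative of ZC3H12A, was called at day 6 of exposure, with 1.25 ± 0.15, and was at 0.26 ± 0.15 afterwards.

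Of 50 genes in the list of NF-κB components and inhibitors, 46 were tested. At day 6 of exposure 13 were called higher and 0 lower, and at day 6 posttreatment 2 of these 13 were called higher and 1 other gene of the list lower. The median d over the tested genes of the list was 0.597 and then 0.201, beside 0.0664 and 0.0472 over all genes tested. MIR3142HG, the host transcript of miR-146a, which silences IRAK and TRAF adaptors, had no count in the controls of day 6 and 7.64, 6.87 and 7.19 CPM with IL-1β, at least 35.4-fold higher against 3 counts per library. After withdrawal, at day 6, all of its libraries were at 3 counts or fewer.

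MT2A and GPX3, of redox and metal defence, and B3GNT5 and PTGS2, enzymes of glycolipids and lipid mediators, were called at day 6 of exposure and not at day 6 posttreatment. Of 33 redox and metal genes listed, 32 were found by symbol and 25 were tested. At day 6 of exposure 3 were called higher and 1 lower, and at day 6 posttreatment 0 higher and 1 lower. Of 39 enzymes of small metabolites listed, 30 were tested, 7 were called higher and 0 lower at day 6 of exposure, and 0 higher and 1 lower at day 6 posttreatment. MT2A, a metallothionein that binds zinc and copper, was at 93.2, 131 and 101 CPM in the controls of day 6 and 351, 328 and 457 CPM with IL-1β, against 201, 95.7 and 139 and 208, 125 and 147 CPM posttreatment, where the groups overlapped. The fit gave a log2 fold change of 1.69 ± 0.33 (edgeR adjusted p = 0.00116) and then 0.04 ± 0.32. GPX3, a secreted glutathione peroxidase, was at 3.28 ± 0.43 and then 0.84 ± 0.45, and neither difference passed (edgeR adjusted p = 0.228 for MT2A and 0.126 for GPX3). The difference of GPX3 was called in 4 of the 12 other settings (adjusted p by edgeR or DESeq2 from 0.0108 to 1.00).

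B3GNT5, a glycosyltransferase of lacto-series glycolipids, was at 5.31, 3.95 and 5.43 CPM in the controls and 12.4, 12.9 and 14.03 CPM with IL-1β at day 6, and at 4.39, 6.73 and 5.87 and 10.3, 9.80 and 9.80 CPM at day 6 posttreatment. Its exposed libraries lay above the controls at both times, with fitted values of 1.34 ± 0.23 and 0.76 ± 0.23, the second at an edgeR adjusted p of 0.0783. PTGS2, the inducible cyclooxygenase of prostaglandin synthesis, was at 7.28, 10.5 and 11.5 CPM with IL-1β at day 6 beside 1.55, 0.968 and 2.00 CPM, and at 0.352, 0.0924 and 0.687 CPM beside 0.439, 0.535 and 1.52 CPM posttreatment. Its d was -0.57 at day 6 posttreatment, -0.92 at day 15 and -1.36 at day 30, the lowest of the 39 genes at the last 2 times, and at both of these every exposed library was under every control library. At day 6 posttreatment the fitted change of PTGS2 did not pass (edgeR adjusted p = 0.801). At days 15 and 21 of exposure, which chose it, the groups of PTGS2 overlapped. With IL-1β it was at 4.99, 4.97 and 14.8 CPM at day 15 and at 4.15, 1.39 and 5.08 CPM at day 21. The controls were at 0.623, 0.905 and 5.15 CPM and at 0.736, 0.696 and 1.74 CPM.

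The genes still called at day 6 posttreatment, beside SAA1, were the receptor ROS1 and the surface enzyme ANPEP. ROS1, a receptor tyrosine kinase, was at 1.01, 0.968 and 1.75 CPM in the controls of day 6 and 4.57, 5.12 and 3.67 CPM with IL-1β. After 6 days without the cytokine it stood at 0.987, 1.68 and 1.48 CPM in control and 6.10, 4.34 and 4.68 CPM in previously exposed cells. All exposed libraries lay above all controls at both times. Its fitted log2 fold change was 1.75 ± 0.25 (edgeR adjusted p = 1.92e-05) and 1.79 ± 0.25 (adjusted p = 4.48e-05), with a difference of 0.04 ± 0.35. At day 21 of exposure, one of the times that chose it, ROS1 was at 10.2, 9.20 and 9.57 CPM beside 1.96, 1.39 and 1.65 CPM in the controls. Its d was 2.23 then and 1.56 at day 6 posttreatment. At day 15 posttreatment it was at 2.63, 2.56 and 2.14 CPM in exposed cells, above 1.67, 1.60 and 1.76 CPM in the controls. At day 30 it was at 1.02, 1.35 and 1.75 CPM beside 1.16, 0.899 and 1.58 CPM, where the groups overlapped.

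ANPEP, the surface aminopeptidase N, was at 1.41, 1.19 and 0.687 CPM in the controls and 7.28, 6.87 and 4.79 CPM with IL-1β at day 6, and at 0.439, 0.841 and 0.647 and 3.87, 1.11 and 2.62 CPM at day 6 posttreatment. All exposed libraries were above all controls at both times, but IL-1β replicate 2 was near the controls posttreatment. The fitted log2 fold change was 2.42 ± 0.33 and then 1.87 ± 0.36 (edgeR adjusted p = 0.00171). Without replicate 1, and with each time point fitted by itself, neither ROS1 nor ANPEP passed at day 6 posttreatment. Over the 12 other settings their adjusted p (edgeR or DESeq2) ranged from 2.21e-08 to 0.120 and from 0.000119 to 0.527. That the responses of these genes returned more slowly than those of the other genes was not tested. Of 45 proteases and inhibitors listed, 32 were tested, 10 were called higher and 0 lower at day 6 of exposure, and 6 higher and 1 lower at day 6 posttreatment.

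F2RL2, the protease-activated receptor PAR3, was at 6.92, 7.45 and 9.25 CPM in the controls of day 6 and 20.1, 20.1 and 35.9 CPM with IL-1β, and at 14.5, 17.6 and 10.9 and 22.1, 31.7 and 12.4 CPM at day 6 posttreatment, where the groups overlapped. Its fitted log2 fold change was 1.59 ± 0.39 (edgeR adjusted p = 0.0115) and then 0.61 ± 0.38 (adjusted p = 0.765). BDKRB2, the bradykinin B2 receptor, was at 8.20, 7.60 and 4.00 CPM in control and 29.4, 30.6 and 8.01 CPM in IL-1β cells of day 6. Its IL-1β replicate 3 lay inside the range of the controls. Of 54 receptors listed, 43 were tested, 7 were called higher at day 6 of exposure and 5 at day 6 posttreatment, 4 of them at both.

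TGFBI, a secreted matrix protein induced by TGF-β, was at 1137, 926 and 949 CPM in the controls of day 6 and at 3046, 3052 and 2416 CPM with IL-1β. After 6 days without IL-1β it was at 1018, 984 and 1055 CPM in control and 1503, 1039.6 and 1873 CPM in exposed cells, with IL-1β replicate 2 among the controls and the other two above them. The fitted log2 fold change was 1.41 ± 0.13 and then 0.43 ± 0.12 (edgeR adjusted p = 0.0578). The difference of -0.97 ± 0.18 passed the adjusted p (0.00573) but not the fold of 2. CLDN1, a tight junction protein, went from 1.63 ± 0.28 to 0.25 ± 0.28, and SRPX2, a secreted sushi-repeat protein, from 1.35 ± 0.24 to 0.45 ± 0.25. SRPX2 shares 52.0% of its exonic bases with SYTL4 on the opposite strand, and the strand setting of the counting is not given in the sources used here. Of 60 matrix and adhesion genes listed, 52 were tested, 13 were called higher and 2 lower at day 6 of exposure, and 6 higher and 3 lower at day 6 posttreatment, with 3 higher at both.

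HMGA2, an architectural chromatin protein known in mesenchymal states, was at 46.8, 49.7 and 43.1 CPM in the controls of day 6 and at 129.8, 136 and 172 CPM with IL-1β. At day 6 posttreatment the controls were at 72.1, 105 and 55.3 CPM and the exposed libraries at 111, 169.7 and 74.3 CPM. The groups, apart during exposure, overlapped by then. The fitted log2 fold change was 1.54 ± 0.35 (edgeR adjusted p = 0.00679) and then 0.59 ± 0.35 (adjusted p = 0.701). The leucine zipper factor CREB5 went from 1.89 ± 0.29 to 0.79 ± 0.29 and EBF1, a factor known from B cells, from 1.95 ± 0.33 to 0.99 ± 0.38, and in both genes the libraries of day 6 posttreatment were still apart without passing the test. CREB5 had a d of -0.79 at day 30 posttreatment. Of 61 transcription factors listed, 58 were tested, 10 were called higher and 1 lower at day 6 of exposure, and 5 higher and 1 lower at day 6 posttreatment, with 2 higher at both.

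SMURF2, a ubiquitin ligase that restrains TGF-β receptors, was not called at day 6 of exposure. It was at 36.96, 36.2 and 38.2 CPM in the controls and 52.5, 52.5 and 67.4 CPM with IL-1β at day 6, and at 39.2, 56.5 and 33.5 and 59.8, 73.7 and 44.4 CPM at day 6 posttreatment. The groups were apart at day 6 of exposure by 0.53 ± 0.27, under the fold of 2 (edgeR adjusted p = 0.444), and its d at days 15 and 21 was 1.11 and 1.00, just inside the limit. Of 19 ubiquitin and TGF-β regulators listed, all 19 were tested, 3 were called higher and 1 lower at day 6 of exposure, and 0 higher and 1 lower at day 6 posttreatment.

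Of the genes in no list, ENSG00000112096, which could not be looked up for want of a symbol, passed the test of the difference. It was at 146, 155 and 149 CPM in the controls of day 6 and 1208, 1304 and 735 CPM with IL-1β, and at 168, 220.1 and 145 and 214, 282 and 208 CPM at day 6 posttreatment. Its fitted difference was -2.39 ± 0.45 (edgeR adjusted p = 0.00947). NAV3, KIAA1217 and GOLGA7B were called at day 6 of exposure with 1.43 ± 0.40, 1.11 ± 0.28 and 1.85 ± 0.20, and stood at 0.80 ± 0.40, 0.43 ± 0.28 and 0.56 ± 0.20 posttreatment. STEAP1 had the lowest share of the early response left, with a d of -0.37 at day 6 posttreatment. The zinc finger gene ZNF792 went from 1.51 ± 0.19 to -0.13 ± 0.19, with a fitted difference of -1.64 ± 0.27 (edgeR adjusted p = 0.00186). COL4A6, a basement membrane collagen chain, kept 1.49 ± 0.57 at day 6 posttreatment, which did not pass (edgeR adjusted p = 0.261), on 0, 6 and 17 counts in control and 24, 6 and 35 counts in exposed libraries.

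SCGB3A2, an airway secretoglobin, was high in libraries that stood apart. In the 11 libraries of high mitochondrial share it was at 8.41 to 27.6 CPM and in the other 25 at 1.49 to 5.97 CPM, whatever the treatment. At day 15 of exposure the IL-1β libraries held 5.53, 3.64 and 16.2 CPM and at day 21 4.03, 14.2 and 5.97 CPM, and the highest of each was a library of high mitochondrial share. SCGB3A2 was the only 1 of the 39 genes whose 2 kinds of libraries did not overlap, and the part of this share in its response was not tested.

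**Figure D4:**
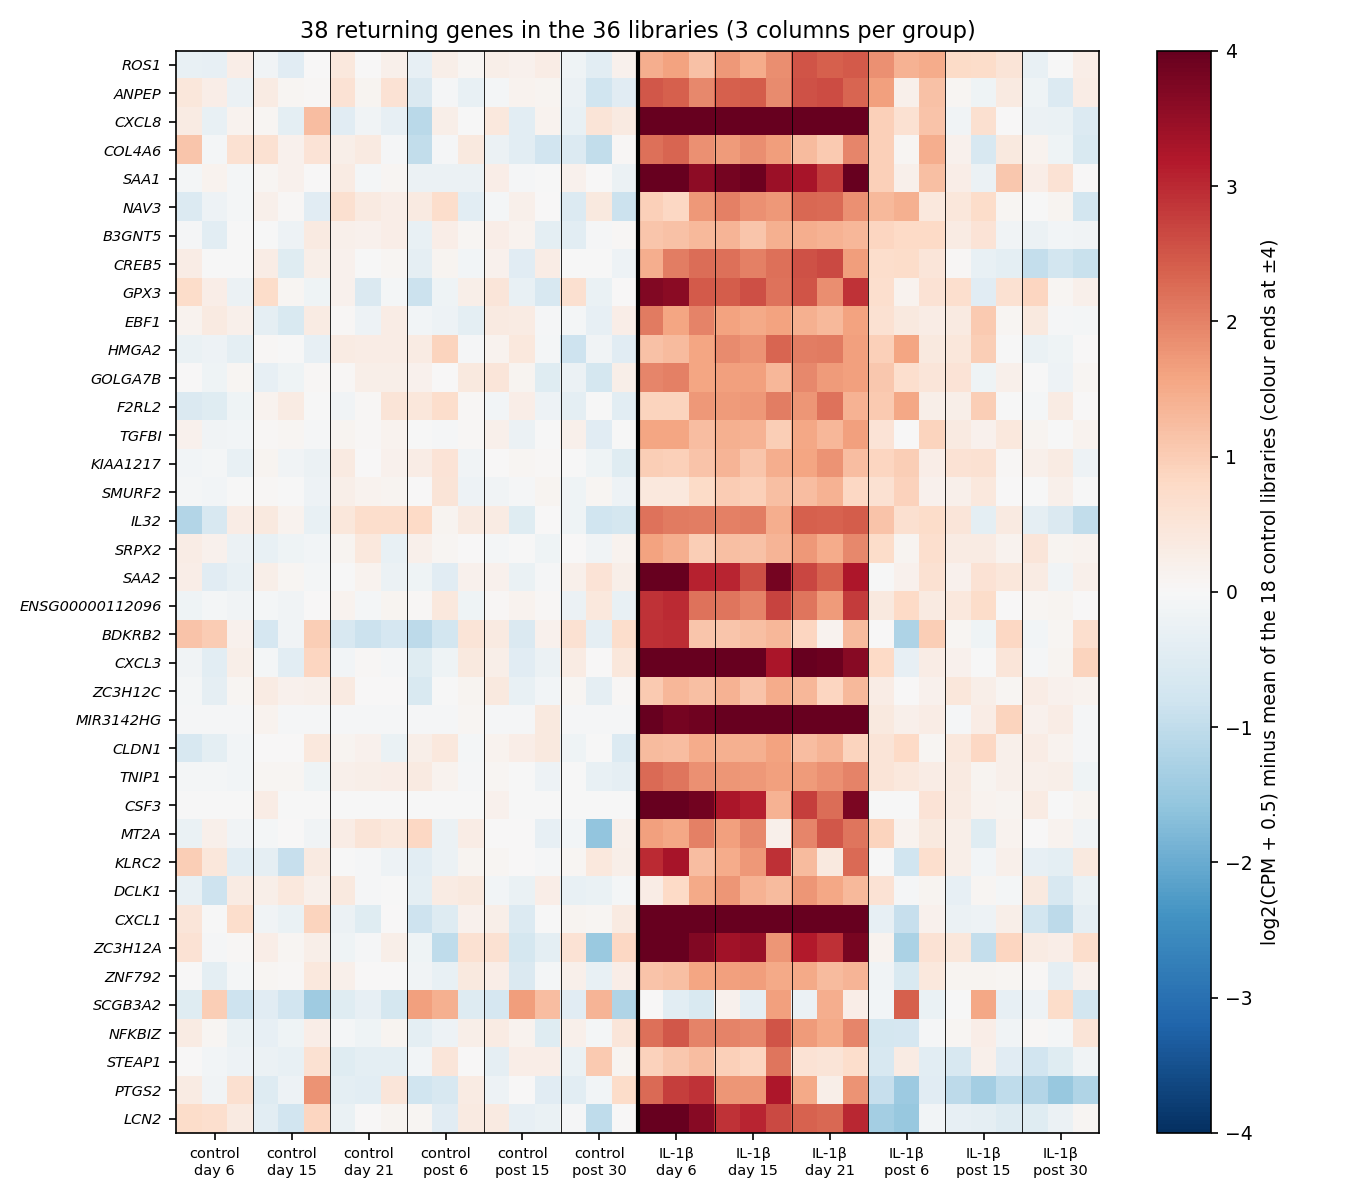
Level of 38 of the 39 genes (rows, ordered by d at day 6 posttreatment) in the 36 libraries (columns, 3 per group in order of replicate number), as log2(CPM + 0.5) minus the mean of the 18 control libraries of that gene, with red above and blue below. The block of IL-1β exposure is red for nearly all rows, ROS1 and ANPEP at the top remain red at day 6 posttreatment, and PTGS2 and LCN2 at the bottom are blue there. SCGB3A2 differs from the rest by red cells in both arms.

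In untreated cells, 0 of the 39 genes differed between the collections of day 6 posttreatment and day 6 (edgeR quasi-likelihood test), where 0.00521% of all genes tested were called in either direction. At an unadjusted p under 0.05 there were 6 of the 39 and 681 of the 19180, and DESeq2's Wald test also called 0 of the 39. Without replicate 3, 2 were called.

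The 39 genes were set beside the other genes induced at days 15 and 21. At day 6 of exposure, 88 of the 123 partly returned and 51 of the 66 persistent genes were called higher, against 35 of the 39. At day 6 posttreatment 49 of the 123 and 56 of the 66 were called higher, against 3 of the 39, and the median d was 0.948 and 1.80 against 0.406. The response was lower posttreatment than at day 6 in 9 of the 123 and 3 of the 66, against 12 of the 39. The median share of the early response kept was 73.5% in 121 partly returned genes and 102% in 66 persistent ones. The 3 sets were separated by values at days 15 and 30 posttreatment, and the sets were not tested against each other.

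The choice was also made on 2 replicates at a time and the response read in the replicate left out. The 39 genes chosen without replicate 1 had a median d in that replicate of 1.46 at day 21 of exposure, 0.538 at day 6 posttreatment and 0.207 at day 30. The 44 genes chosen without replicate 2 had 1.48, 0.345 and 0.190 there, and the 36 chosen without replicate 3 had 1.74, 0.298 and 0.0237. At day 30 posttreatment the left-out value was under 0.5 in 32 of 39, 37 of 44 and 32 of 36 genes. At day 15 it was under 0.5 in 30 of 39, 21 of 44 and 22 of 36. Over all 15384 genes with a mean CPM of at least 1, d from the 3 replicates was under 0.5 in 12872 at day 30 and 12826 at day 15. A value under 0.5 at these times was thus common among all genes and does not set the chosen genes apart.

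The late values that chose the genes are given as a description. The median d of the 39 genes was 1.88 at day 15 and 1.65 at day 21 of exposure, then 0.259 at day 15 and 0.135 at day 30 posttreatment, where the median over all genes with a mean CPM of at least 1 was -0.110, -0.0394, 0.195 and 0.132. At day 30 posttreatment 13 of the 39 were below 0 and 5 below -0.5, which were PTGS2 (-1.36), CXCL1 (-0.90), CREB5 (-0.79), STEAP1 (-0.76) and CXCL8 (-0.55). Just inside the limits were SMURF2 (1.11) and ZC3H12C (1.11) at day 15 of exposure, SMURF2 (1.00) and SCGB3A2 (1.00) at day 21, SAA2 (0.448) and COL4A6 (0.445) at day 15 posttreatment, and MT2A (0.495) and ZC3H12A (0.470) at day 30. Just outside were SVIL (0.998) and CD83 (0.941), LETM2 (0.956) and ESRG (0.955), CXCL5 (0.518) and TNFSF14 (0.530), and SLC16A6P1 (0.539) and SLC16A6 (0.583) in the same order. With a mean CPM near 1, COL4A6 (1.21) and CSF3 (1.38) were inside and FAM177B (0.880) and DNER (0.857) outside. Under TMM scaling of the CPM, which moves the late responses of all genes, 67 of 243 induced genes met the limits, including all 39.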

How the data were processed

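Total RNA was extracted from A549 cells, and stranded mRNA libraries were sequenced as single-end reads. Per the labels, the authors used bcl2fastq 2.17, TopHat2 2.0.14, Bowtie2 2.2.5, HTSeq 0.6.1 and GRCh37. The authors deposited raw counts per Ensembl gene, without normalization. The strand setting and annotation release are not given in the sources used here. Lines without a gene held 8.48% to 18.6% (no feature) and 2.62% to 4.18% (ambiguous) and were left out.

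Symbols and positions of 55665 of the 63677 genes came from GENCODE v44lift37, and promoters from RefSeq (GRCh38.p14), with entries for 32 of the 39 genes. The genes and the lists of families were chosen with earlier results of these data known. Counts were fitted with edgeR 4.0.16 (limma 3.58.1, R 4.3.3), using TMM scaling, filterByExpr, the 12 groups as terms (24 residual degrees of freedom) and the quasi-likelihood test, with Benjamini-Hochberg adjustment over the 19180 genes tested. The thresholds for a call, a fold change over 2 and an adjusted p under 0.05, are those of the study's methods, which name edgeR. DESeq2 1.42.0 was an alternative. Groups whose libraries held at most 3 counts of a gene were taken as at the floor, and folds against groups at 0 were bounded by 3 counts per library, which covers counting error only.

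Genes were named by a fixed rule. In each list they were the 3 with the highest mean CPM, and outside the lists the 5 with the highest mean CPM. The 5 with the largest change at day 6 of exposure, the 5 with the largest and the 5 with the smallest at day 6 posttreatment, and the genes nearest each limit were added. The first gene of each list is given in every library of the tested times. Other genes were chosen after their values were seen. Values of 1 of the 39 genes and of 1 marker are not reported here. Alternatives were other scalings, filters, tests and pseudocounts, each replicate left out, the replicate number as a block and the libraries of high mitochondrial share (over 10% of counts) left out or as a covariate. The covariate together with the block was added after seeing the data.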

Additional observations from a re-analysis of the deposited data

Results flagged for a closer look

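The response to IL-1β differed between day 6 posttreatment and day 6 of exposure, by the test of the difference itself, in 12 of the 39 genes, and in each it was the lower posttreatment (edgeR quasi-likelihood test with the thresholds of the report). On the log2 scale the fitted difference was -6.05 for CXCL1, -5.74 for CXCL8 and -4.30 for CXCL3, the chemokines. It was -5.87 for LCN2 and -2.23 for IL32. Among the regulators of the pathway it was -3.79 for ZC3H12A, -2.52 for NFKBIZ and -1.89 for TNIP1. It was -2.39 for ENSG00000112096, -1.64 for ZNF792 and -1.30 for GOLGA7B. Of the 12 other settings tried, 12 called CXCL1, CXCL3 and CXCL8, 11 called LCN2, ZC3H12A and NFKBIZ, 10 called TNIP1 and ENSG00000112096, 8 called IL32 and ZNF792, and 5 called GOLGA7B. Of these genes 11 are given here. What set these genes apart from the others was not tested.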

How the results depend on the processing

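Leaving out each replicate in turn gave 22 to 31 genes called higher at day 6 of exposure, 0 to 2 at day 6 posttreatment (where LCN2 was called lower without replicate 3), 3 to 11 for the difference and 0 to 2 in untreated cells, the lowest of the first 3 without replicate 1. A separate fit gave 0 of the 34 genes fitted at day 6 posttreatment and 6 for the difference. The number of genes meeting the limits was 67 with TMM scaling, 25 with a mean CPM of at least 5 and 77 without libraries of high mitochondrial share, which held 39, 25 and 34 of the 39, and 12 of the 39 met the limits under all 11 alternatives. The median d at day 6 was 1.66 with a pseudocount of 2. At day 15 it was 2.10, 1.64 and 1.46 and at day 21 1.72, 1.61 and 1.499 with pseudocounts of 0.1, 1 and 2. Without libraries of high mitochondrial share it was 1.77 at day 21, 0.0966 at day 15 posttreatment and 0.0363 at day 30, and with TMM scaling 0.0654 at day 15 posttreatment. Leaving out replicates gave 1.66 to 1.73 at day 21 and 0.0363 to 0.149 at day 30 posttreatment. The fitted change at day 6 posttreatment turned to 0.0058 for CXCL1 and 0.055 for ZC3H12A with total counts, and ran from -0.17 to 0.31 for MT2A and from -0.063 to 0.60 for CXCL3 over replicates left out. The difference of ROS1 turned to -0.002655 without a filter and ran from -0.33 to 0.35 over replicates left out. SCGB3A2 at day 6 turned to 0.41 without libraries of high mitochondrial share, 0.47 with the share as a covariate and 0.47 with the block as well, and ran from -1.16 to 0.46 over replicates left out. The cause was not tested. Replicate numbers were not taken as pairs in the main fit. The correlation of deviations from the group means was 0.0900 for replicate 2 at day 6 and -0.114 for replicate 1 at day 6 posttreatment. It ran from -0.336 for replicate 3 at day 15 posttreatment to 0.718 for replicate 3 at day 6 posttreatment. Of 36 libraries, 30 deviated most like that of the same number in the other arm, so the numbers may mark pairs. With the replicate block, 37, 3 and 15 genes were called at day 6 of exposure, at day 6 posttreatment and for the difference, with BDKRB2 and STEAP1 added at day 6 and CLDN1, GPX3 and PTGS2 for the difference. In untreated cells of different times no block was fitted. Counts of SAA1, COL4A6 and LCN2 at day 6 posttreatment were low, which limits the precision of their values.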
